A study of Mus musculus with 5 samples.

Results

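To follow how the genes of the myeloid transcription factors gain open chromatin as blood forms, DNaseI hypersensitive sites (DHSs) were examined at 7 genes, Spi1, Irf8, Cebpa, Cebpb, Cebpd, Maf and Tfec. DHSs are stretches of chromatin that the nuclease DNase I can cut, and are called open here. A site belonged to a gene if it came within 1 kb of any annotated transcription start site (TSS) of that gene. It also belonged if its centre lay inside the gene or up to 100 kb from its TSS with no other protein-coding TSS nearer. By this rule 139 of the 135173 deposited sites fell to the 7 genes, out of 21000 protein-coding genes with a curated mRNA. When sites of different stages that shared a place were merged, they made 81 of 68846 regions.

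All cells came from a single line of mouse ES (embryonic stem) cells, strain 129, that carries a GFP reporter of Brachyury (Bry), a gene of early mesoderm, and that was differentiated in culture. Cells were sorted into 5 populations. Bry.GFP+ cells without FLK1 were taken as mesoderm (MES), and those with FLK1 as hemangioblasts (HB), the common forerunners of vessel and blood cells. Bry.GFP+ cells with Tie2 and Ckit but not CD41 were taken as hemogenic endothelium (HE), the endothelium from which blood cells bud. Cells with CD41 were the hematopoietic progenitors (HP), and their progeny with CD11b were the macrophages (MAC). There was 1 list per stage, and the MAC label names 2 replicates together. How these were joined into 1 list is not given in the sources used here, and each MAC number below rests on it. With 1 list a stage, no difference between stages could be set against a spread between replicates and no test between stages was made. The lists held 17734 to 37456 sites, shortest in HP and longest in MAC, with a median width from 600 bp in MAC to 1200 bp in HE and no read counts. The depth behind a site is thus not in the lists, and the absence of a site means only that none was listed. HP had the fewest aligned reads of the populations by the study's own totals, which are not used here, and their part in the short HP list was not tested. Marker genes fixed for each population were checked against these lists. All 4 macrophage markers, Itgam (which encodes CD11b), Csf1r, Adgre1 and Cd68, had a promoter site in MAC, and 1 of the 4, Cd68, also had one at every earlier stage. Of the markers of the earlier populations, 3 of 3 for MES, 2 of 2 for HB and 4 of 4 for HE had a promoter site in their own list. These did not tell MES from HB, since all 3 MES markers also had one in HB and both HB markers, T and Kdr, had one in MES. Only 1 of the 3 HP markers, Itga2b (which encodes CD41), had one in HP, while Gfi1b had one in MAC alone and Gata1 at no stage. Of 4 pluripotency markers 4 had a promoter site in MES, 3 in HB, 2 in HE and none in HP or MAC. Among markers of other blood cells, 1 of 3 for granulocytes, S100a8, had one in MAC, and there alone, and all 3 had more sites in MAC than in HP. Of 3 erythroid markers 3 had a promoter site in HP and 2 in MAC, of 3 megakaryocyte markers 1 had one in each of these, and of 3 lymphoid markers none had one at any stage. Their part in the MAC results was not tested. Of 3 fibroblast markers 3 had one in MES, HB and HE, 1 in HP and none in MAC. The ES cells had been kept on embryonic fibroblasts. The part of these feeder cells in the MES, HB and HE lists was not tested.

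PU.1, the ETS factor that Spi1 encodes, binds purine-rich GGAA sites and is required for macrophages, where it opens enhancers together with C/EBP factors, the basic leucine zipper proteins of the Cebp genes. IRF8 joins PU.1 at composite sites and favours monocytes over granulocytes, c-Maf is a basic leucine zipper factor that restrains proliferation and shapes gene expression in mature macrophages, and TFEC is an E-box binding relative of MITF found in the macrophage lineage. These genes are known to be controlled by distal enhancers, among them an upstream regulatory element of Spi1 that RUNX1 and PU.1 itself bind.

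The sequences shown first are those at Spi1, because that locus held regions shared by HE, HP and MAC and regions listed in MAC alone. Each is the central 200 bp of a merged region upstream of the main Spi1 TSS (chromosome 2, position 91096678, plus strand, build mm10), read 5′ to 3′ from the plus strand of the RefSeq reference. Capitals mark letters that match 1 of 9 consensus sequences searched on both strands. For the myeloid factors these were GAGGAAGT (PU.1), TTGCNNAA (C/EBP) and GAAANNGA (IRF). RUNX factors, which work with PU.1 in blood progenitors, were searched as TGTGGT. The leucine zipper dimers of Fos and Jun were searched as TGANTCA (AP-1). GATA factors, zinc finger proteins of endothelium and of red cell precursors, were searched as AGATAA. The effectors of Hippo signalling were searched as CATTCC (TEAD). Maf factors were searched by the core of their recognition element, TGCTGA. The E-box, the palindrome that MITF and TFEC can bind, was searched as CACGTG. The Maf core can lie inside a match of another factor, as can short matches in general.
Spi1, 15.4 kb upstream, chr2:91081175-91081374: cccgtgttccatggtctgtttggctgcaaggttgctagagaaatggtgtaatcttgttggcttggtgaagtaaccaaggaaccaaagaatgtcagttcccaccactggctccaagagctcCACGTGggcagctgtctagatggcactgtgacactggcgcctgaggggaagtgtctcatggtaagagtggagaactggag
Spi1, 13.5 kb upstream, chr2:91083047-91083246: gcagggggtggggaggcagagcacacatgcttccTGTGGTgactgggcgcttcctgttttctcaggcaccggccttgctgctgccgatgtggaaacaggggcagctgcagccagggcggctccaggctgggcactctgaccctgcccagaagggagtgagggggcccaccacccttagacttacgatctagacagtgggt
Spi1, 12.2 kb upstream, chr2:91084425-91084624: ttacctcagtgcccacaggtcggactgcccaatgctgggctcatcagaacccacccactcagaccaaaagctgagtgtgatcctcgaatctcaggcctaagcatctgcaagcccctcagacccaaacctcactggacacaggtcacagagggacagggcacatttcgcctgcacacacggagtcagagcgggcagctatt
Spi1, 10.2 kb upstream, chr2:91086425-91086624: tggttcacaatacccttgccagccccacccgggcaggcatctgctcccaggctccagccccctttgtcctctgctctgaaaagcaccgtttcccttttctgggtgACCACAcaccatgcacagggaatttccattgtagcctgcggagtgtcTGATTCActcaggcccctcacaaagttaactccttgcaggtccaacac

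The window 15.4 kb upstream held an E-box, and the one 13.5 kb upstream held a RUNX match at position 35. No letters of the 9 consensus sequences fell in the central 200 bp of the window 12.2 kb upstream. The window 10.2 kb upstream held a RUNX match on the minus strand and an AP-1 match. In comparison, of all 45091 regions over 1 kb and up to 100 kb from a TSS, the central 200 bp held a RUNX match in 18.5%, an AP-1 match in 15.2% and an E-box in 3.84%. The windows 15.4 and 13.5 kb upstream are not of this class, since their regions reach within 1 kb of an upstream Spi1 start. In the 250 bp upstream of 25999 curated start sites, a RUNX match was found in 12.0% and an E-box in 6.77%. A match is a description of letters and not a binding site.

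Spi1 had more sites in MAC than in any earlier list, although 1 of its regions was listed in HB, HE and HP and not in MAC. There was 1 site in MES, with 2 in HB, 4 each in HE and HP, and 6 in MAC. From MES to MAC these numbers were reached by 65.7, 25.5, 10.4, 2.43 and 6.26% of all genes. The HP number was thus rarer among genes than the MAC number. Over all genes 18250 sites were assigned in HP and 35416 in MAC, in proportion a larger rise than that at Spi1. Only 1 of its regions, 4.9 kb downstream of the TSS in an intron, was listed at every stage, with widths of 500, 600, 600 and 700 bp from MES to HP and 200 bp in MAC. The promoter had a site from HE onward, with widths of 600, 700 and 600 bp in HE, HP and MAC, each lying across the TSS. In MES and HB the nearest site lay 4713 and 4620 bp away. The pattern HE, HP and MAC was shared by 92 of the 21000 genes, or 0.438%.

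**Figure D1:**
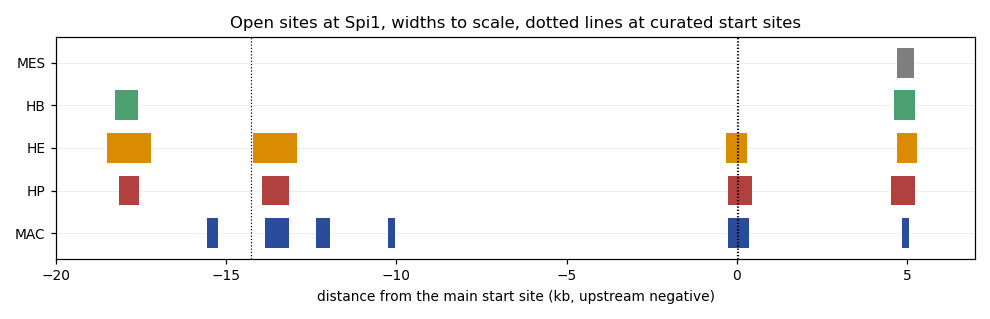
Open sites assigned to Spi1 in each of the 5 lists, with distance from the main TSS in kb on the horizontal axis and 1 row per stage. Bars are drawn to scale. Dotted lines mark the curated start sites, at 0, 0.022 kb downstream and 14.3 kb upstream. The row of MES holds a bar at 4.9 kb alone, and the row of MAC holds 6 bars, 3 of them in places where no earlier row has one.

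A curated transcript of Spi1 starts 14.3 kb upstream of the main TSS, at position 91082405, within the stretch known to hold the upstream regulatory element. The region 13.5 kb upstream, in the first part of that transcript's intron, had the same pattern as the main promoter. It was 1300, 800 and 700 bp wide in HE, HP and MAC, and it was not listed in MES or HB. The regions 15.4, 12.2 and 10.2 kb upstream were listed in MAC alone, 300, 400 and 200 bp wide. Those 15.4 and 13.5 kb upstream reach within 1 kb of the upstream start, so they are not among the distal regions counted later.

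To compare the promoters of the 7 genes, the sites within 1 kb of any TSS were counted at each stage. In MES 4 of the 7 genes had such a site, against 57.2% of all genes, and in HB 4 of 7, against 58.9%. HE had 6 of 7, against 61.7%. HP had 4 of 7, against 50.1%, and MAC had 6 of 7, against 50.2%. In MES, HB and HP the share of the 7 genes was near the background, and it was above it in HE and MAC. Without the sites narrower than their list's median, no member had a promoter site in HP, where 4 had one with all sites.

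Irf8, Cebpa and Maf had a promoter site at all 5 stages, as did 43.4% of all genes. At Irf8 (chromosome 8, position 120736358, plus strand) the promoter site was 1000, 1200, 1200, 500 and 700 bp wide from MES to MAC. At Cebpa (chromosome 7, position 35119293, plus strand) the widths were 900, 900, 1500, 700 and 1100 bp. At Maf (chromosome 8, position 115706894, minus strand) they were 1100, 1300, 2100, 800 and 1100 bp. At Cebpa and Maf the widest of these was that of HE, the list with the widest sites over the genome, and at Irf8 those of HB and HE were equal.

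The other promoters were listed at some stages or none. Cebpd (chromosome 16, position 15887286, plus strand), the C/EBP gene known for its quick response to inflammatory signals, had a promoter site in every list but that of HP, 800, 1300 and 1600 bp wide from MES to HE and 700 bp wide in MAC. The nearest HP site was 23327 bp away. This pattern was that of 1.79% of genes. Tfec (chromosome 6, position 16898441, minus strand) had one in HE, 700 bp wide, and in MAC, 600 bp wide, a pattern of 0.757% of genes. In HP the nearest site to its curated TSS was 27785 bp away, and in MES and HB 166357 and 166189 bp away. Cebpb (chromosome 2, position 167688915, plus strand), which encodes the C/EBP factor induced in activated macrophages, had no promoter site in any of the 5 lists, as did 32.4% of all genes.

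The absence at Cebpb stood beside a sequence that is otherwise seldom unlisted. Its 500 bp around the TSS had 79.0% GC, 80 CpG dinucleotides and an observed to expected ratio of 1.03. Of 11476 genes with a CpG-rich promoter (at least 50% GC and a ratio of at least 0.6), 543 or 4.73% had no promoter site at any stage and 70.7% had one at all 5. Of 348 genes with a GC share as high as that of Cebpb, 10.3% had none and 44.5% had one at all 5. The nearest sites lay 3325, 3318 and 3246 bp from the TSS in MES, HB and HE and 8396 and 8391 bp away in HP and MAC. Base composition moved with listing in this way, and its part in the Cebpb result was not tested. Irf8, Cebpa, Cebpd and Maf were CpG-rich as well, with ratios from 0.726 to 0.917. Spi1 and Tfec were not, and the ratio at Tfec was 0.294. Among the 9521 genes without a CpG-rich promoter 10.4% had a promoter site at all 5 stages and 65.7% at none.

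Sites farther from the promoters differed more between the lists. Over the 7 genes assigned sites numbered 16, 19, 27 and 15 from MES to HP, and 62 in MAC. MAC thus held 44.6% of the sites of the 7 genes (95% Wilson interval 36.6 to 52.9, which covers counting error only), while it held 27.7% of all sites. With a reach of 20 kb in place of 100 kb the 7 genes had 24 MAC sites, 35.8% of their total, and with the nearest TSS taken over non-coding genes as well they had 24, or 36.4%. Without the narrow sites the share was 53.7%. Beyond 1 kb from a TSS the 7 genes had 12, 14, 20, 10 and 53 sites. All 7 had at least 1 such site in MAC, against 44.1% of all genes. In MES 3 of 7 had one, against 27.1%, in HB 4 of 7, against 29.3%, in HE 5 of 7, against 38.8%, and in HP 4 of 7, against 22.4%. The stretch of genome nearest to a gene within the reach had a median of 49.1 kb over all genes. It was longer at each of the 7 but Spi1, from 64.9 kb at Cebpa to 200 kb at Maf. A longer stretch leaves more room for sites, and these shares are not corrected for it. Every one of the 7 had more sites in MAC than in HP, which was so for 38.2% of all genes.

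**Figure D2:**
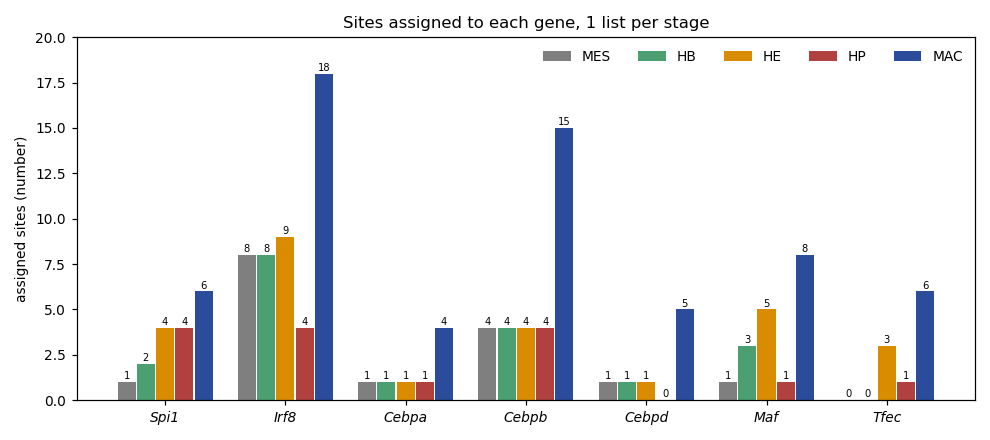
Number of assigned sites (vertical axis) of each of the 7 genes in the 5 lists, 1 bar per list with its count above it. The bar of MAC is the tallest at each gene, from 4 sites at Cebpa to 18 at Irf8, and with 1 list per stage there is no error bar.

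**Figure D3:**
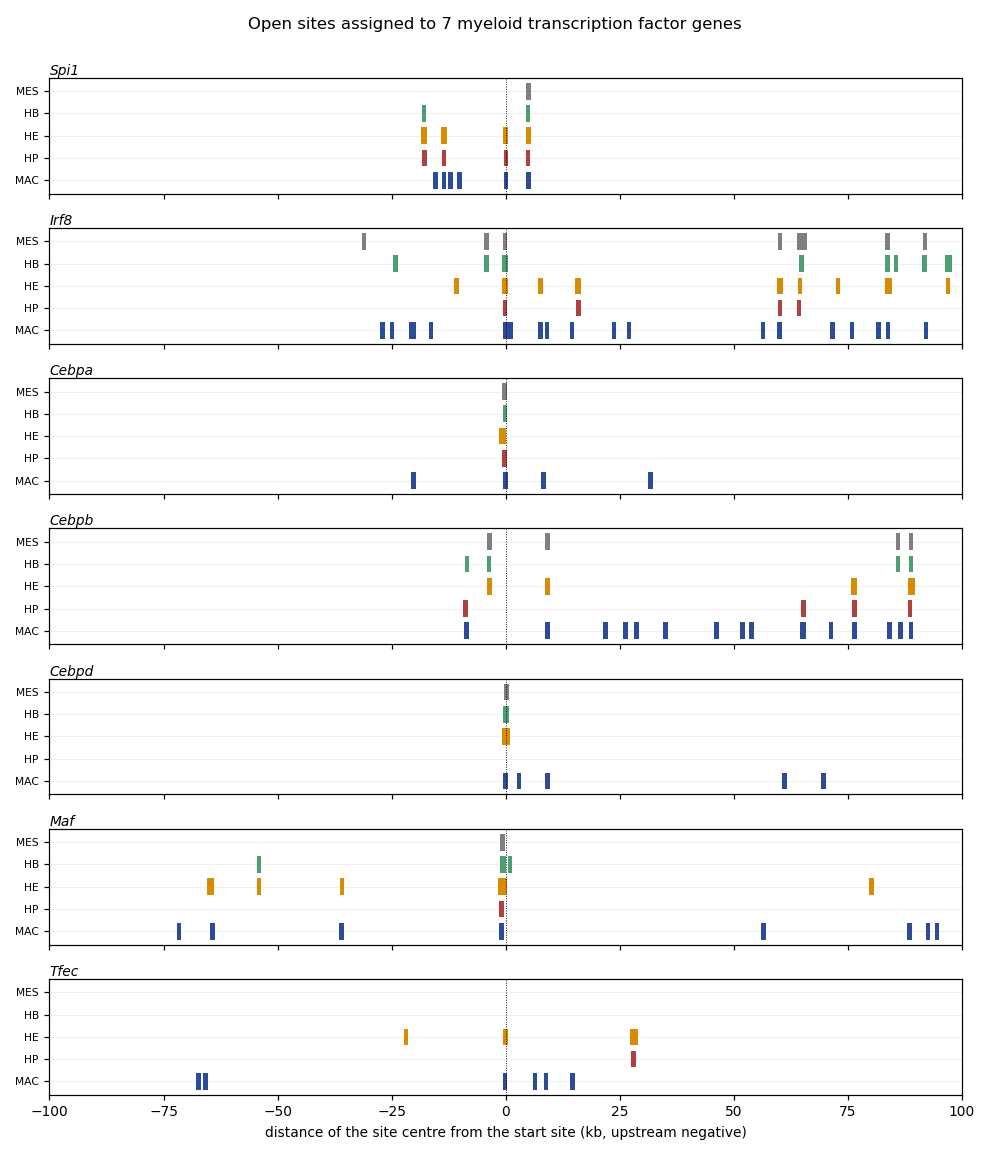
Position of each of the 139 sites, as the distance of its centre from the main TSS in kb (horizontal axis, upstream negative), with 1 panel per gene and 1 row per stage. Bars are drawn at least 1 kb wide so that narrow sites can be seen. The MAC rows fill stretches that are empty in the rows above, most of all downstream of Cebpb and on both sides of Irf8.

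Irf8 had the most sites of the 7 in every list but HP, with 8, 8, 9 and 4 from MES to HP and 18 in MAC. In HP Spi1 and Cebpb had 4 as well. Only 0.0667% of genes, 14 in number with Irf8 counted, had as many MAC sites as Irf8. Its counts in the earlier lists were reached by 0.205% of genes in MES, 0.552% in HB, 1.1% in HE and 2.43% in HP. The stretch of genome nearest to Irf8 within the reach was 136.3 kb, against a median of 49.1 kb over all genes. Per 100 kb of that stretch Irf8 had 13.2 MAC sites, against 2.35 for all genes together. By this measure Spi1, with a stretch of 31.1 kb, was higher at 19.3, Cebpb was equal at 13.2, and the other 4 lay between 3.27 and 6.16. From MES to HP all genes together had 1.47, 1.62, 2.12 and 1.21. Against these Irf8 had 5.87, 5.87, 6.6 and 2.93, and Spi1 had 3.22, 6.44, 12.9 and 12.9. In MES, HB and HP, Cebpd, Maf and Tfec lay below all genes together. Of the 26 Irf8 regions beyond 1 kb, 12 were listed in MAC alone. They lay between 27.0 kb upstream and 81.8 kb downstream. The widest of them, 20.4 kb upstream, was 1500 bp wide. The region 56.4 kb downstream, 600 bp wide, was also in MAC alone. It lies where an enhancer about 56 kb downstream of Irf8 is known from monocytes and macrophages, inside the non-coding gene Gm33199. The region 15.9 kb downstream in an intron was listed in HE and HP, 1300 and 600 bp wide, and not in MAC. The regions 31.1 kb upstream and 65.5 kb downstream were in MES alone, although the MES site of the latter shared 30 bp with an HB site counted to the next region, and those 10.8 kb upstream and 72.8 kb downstream in HE alone.

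Upstream of Irf8, 7 more regions from 57.7 to 34.3 kb away lay nearer to the TSS of Cox4i1, a housekeeping gene of the respiratory chain, and so were not counted for Irf8. Of these, the regions 50.0 and 38.7 kb upstream were in MAC alone. The one 50.0 kb upstream lies by a place known as an Irf8 enhancer.

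Cebpb had 4 sites at each of the stages before MAC and 15 in MAC, a MAC number reached by 52 of the genes, or 0.248%. Of its 17 regions, all beyond 1 kb, 10 were in MAC alone, spread from 21.9 to 86.6 kb downstream with widths of 200 to 1000 bp. The MAC site of the last of these shared 273 bp with an HB site and 66 bp with a MES site whose centres fell in a neighbouring region. Of those already open earlier, the region 65.2 kb downstream was listed in HP and MAC, 500 and 1200 bp wide. The region 76.4 kb downstream was listed in HE, HP and MAC, 1300, 600 and 900 bp wide. The region 88.8 kb downstream was listed at all 5 stages. The region 3.6 kb upstream was listed in MES, HB and HE and in neither HP nor MAC.

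Cebpa, which encodes the C/EBP factor required to form granulocyte and monocyte progenitors, had its promoter site alone at the stages before MAC and 4 sites in MAC. As many MAC sites were found at 13.8% of genes. The 3 distal sites, 20.2 kb upstream and 8.4 and 31.7 kb downstream, were 900, 1100 and 600 bp wide, and all were in MAC alone. A further region 44.6 kb downstream, also in MAC alone, was nearest to Slc7a10 and was not counted. Between 31.7 and 44.6 kb, where an enhancer of Cebpa is known in myeloid progenitors, none of the 5 lists held a site.

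Cebpd had 1 site in each of MES, HB and HE, none in HP and 5 in MAC. Its 4 distal regions, 2.9, 9.1, 61.1 and 69.6 kb downstream, were all in MAC alone and all lay in introns of Spidr, the neighbouring DNA repair gene. They counted for Cebpd because its TSS was nearer than that of Spidr. Maf had 1, 3, 5 and 1 sites from MES to HP and 8 in MAC. Of its 10 distal regions 6 were in MAC alone, 2 in HE alone, and 1, 36.0 kb upstream, in HE and MAC with widths of 900 and 600 bp. One of the 6, 64.3 kb upstream, and 1 of those in HE alone, 64.7 kb upstream, were kept apart by their centres, but the 300 bp MAC site lay wholly inside the HE site. Tfec had no site in MES or HB, but 3 in HE, only 1 in HP and 6 in MAC. Of its 7 distal regions 5 were in MAC alone. The region 28.1 kb downstream, in an intron, was in HE and HP, 1600 and 400 bp wide, and that 21.8 kb upstream in HE alone, 700 bp wide. As with Maf, a part of the sites that Tfec had in HE was not listed in MAC.

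To ask how much of the MAC set was already open earlier, the regions were sorted by the stages that listed them. Of the 71 regions of the 7 genes beyond 1 kb, 42 or 59.2% (95% Wilson interval 47.5 to 69.8) were in MAC alone. Over all genes the share was 38.0% of 45091 regions over 1 kb and up to 100 kb from a TSS. Both sets hold regions of the same 5 lists, so the longer MAC list bears on both. Their rules differ. A region of the 7 genes was left out if a site in it came within 1 kb of any annotated TSS. Regions of all genes were placed by their centre and the nearest curated TSS. By that rule the MAC-only regions 15.4 kb upstream of Spi1 and 1.07 kb downstream of Irf8 would also be distal. Since regions were set by the centres of sites, 2 of the 42, at Maf and Cebpb, had a MAC site that overlapped an earlier site, and 40 did not. With deposited intervals merged wherever they overlapped, 40 regions or 58.8% were in MAC alone. A further 11 of the 71 were open in MAC and at least 1 earlier stage, and 18 were not open in MAC. HE alone accounted for 5 regions, or 7.04% against 17.9% over all genes. MES alone and HB alone had 2 each, or 2.82%, against 4.56% and 6.11%. No region was in HP alone, which over all genes held 2.76%.

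**Figure D4:**
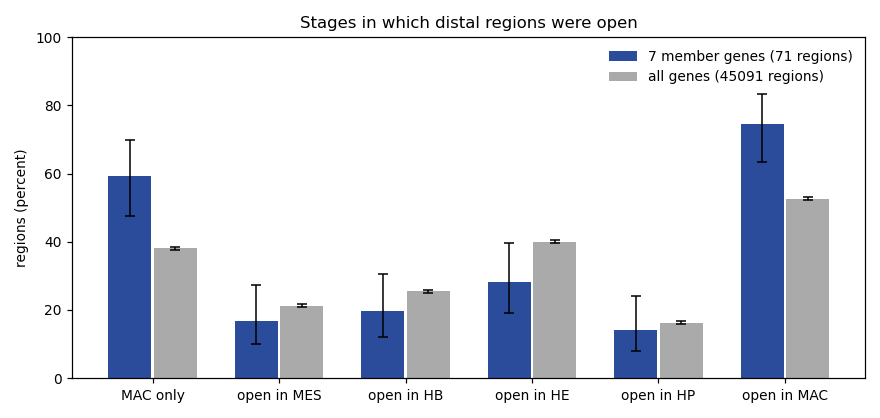
Share of distal regions (percent, vertical axis) that were listed in MAC alone, or listed in a given stage whatever the others, for the 71 regions of the 7 genes and for the 45091 regions of all genes. Bars carry 95% Wilson intervals for counting error. The share in MAC alone was 59.2% against 38.0%, and the share open in HE was 28.2% against 40.0%.

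Part of what was open at each earlier stage was found again in MAC. Of the 20 distal regions open in HE, 8 were also open in MAC and 12 were not, a share of 40.0% in MAC against 29.9% of all distal HE regions. Of the 10 open in HP, 6 were also in MAC, or 60.0% against 45.1% of all distal HP regions. Of the 12 open in MES, 6 were also in MAC, or 50.0% against 29.8%, and of the 14 open in HB, 5 were, or 35.7% against 27.0%. These member counts are small, and no test was made of the differences. When deposited intervals were compared directly, 13 of the 53 MAC sites beyond 1 kb overlapped a site of an earlier list. That is 24.5% (14.9 to 37.6), and the share among all 28023 such MAC sites, 29.0%, lies inside this interval. HE was the earlier list with the most overlaps, 9 of the 53 or 17.0%, and it was also so over all such MAC sites, at 24.8%. The MAC sites of the 7 genes had a median width of 600 bp, the same as the whole MAC list.

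The distal sequences shown next are 1 for each gene but Spi1, whose own is that 12.2 kb upstream shown before. Each is the central 200 bp of the widest MAC site beyond 1 kb that held no exon there, together with the Irf8 region 56.4 kb downstream, which was added after its values were seen. At Cebpd the sites 2.9 and 69.6 kb downstream were both 800 bp wide, and the nearer is shown. At Maf those 56.5 and 94.6 kb downstream were also both 800 bp wide, and again the nearer is shown. All are read from the plus strand with capitals as before.
Irf8, 20.4 kb upstream, chr8:120715876-120716075: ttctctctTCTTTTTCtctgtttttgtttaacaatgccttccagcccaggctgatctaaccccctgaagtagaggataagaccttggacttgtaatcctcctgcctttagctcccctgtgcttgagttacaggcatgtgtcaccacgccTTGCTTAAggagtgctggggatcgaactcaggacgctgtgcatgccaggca
Irf8, 56.4 kb downstream, chr8:120792626-120792825: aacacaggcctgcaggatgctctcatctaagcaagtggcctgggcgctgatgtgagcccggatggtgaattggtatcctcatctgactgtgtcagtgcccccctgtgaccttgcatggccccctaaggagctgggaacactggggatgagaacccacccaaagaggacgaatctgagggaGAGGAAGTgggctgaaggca
Cebpa, 8.4 kb downstream, chr7:35127560-35127759: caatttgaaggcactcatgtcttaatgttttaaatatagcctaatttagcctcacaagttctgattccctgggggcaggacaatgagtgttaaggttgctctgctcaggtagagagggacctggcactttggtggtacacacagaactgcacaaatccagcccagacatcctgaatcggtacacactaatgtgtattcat
Cebpb, 65.2 kb downstream, chr2:167754025-167754224: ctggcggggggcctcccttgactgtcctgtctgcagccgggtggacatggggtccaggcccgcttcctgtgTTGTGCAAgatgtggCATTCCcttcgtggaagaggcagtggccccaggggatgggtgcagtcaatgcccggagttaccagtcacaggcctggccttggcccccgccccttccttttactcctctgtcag
Cebpd, 2.9 kb downstream, chr16:15890108-15890307: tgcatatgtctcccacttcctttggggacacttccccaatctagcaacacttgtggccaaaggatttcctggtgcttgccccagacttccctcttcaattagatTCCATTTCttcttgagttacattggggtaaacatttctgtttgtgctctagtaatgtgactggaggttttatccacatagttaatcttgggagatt
Maf, 56.5 kb downstream, chr8:115650326-115650525: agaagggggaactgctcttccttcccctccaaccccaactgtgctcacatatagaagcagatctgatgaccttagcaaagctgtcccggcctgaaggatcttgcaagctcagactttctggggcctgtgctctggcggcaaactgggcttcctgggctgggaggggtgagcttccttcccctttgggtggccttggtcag
Tfec, 6.4 kb downstream, chr6:16891950-16892149: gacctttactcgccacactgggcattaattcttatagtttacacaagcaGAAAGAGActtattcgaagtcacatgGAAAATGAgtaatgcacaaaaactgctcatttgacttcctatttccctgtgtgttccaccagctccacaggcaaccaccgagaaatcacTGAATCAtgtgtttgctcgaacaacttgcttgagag

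The widest Irf8 site held an IRF match on the minus strand and a C/EBP match at position 150. The Irf8 window 56.4 kb downstream held the PU.1 consensus at position 181, and overlaps an exon of Gm33199. The Cebpb site 65.2 kb downstream held a C/EBP match on the minus strand at position 72 and a TEAD match. The Cebpd window held an IRF match, and the central 500 bp of the site 69.6 kb downstream held C/EBP, IRF, RUNX and Maf core matches. The Tfec window held 2 IRF matches and an AP-1 match. The Cebpa and Maf windows held none of the 9 consensus sequences in these 200 bp. In the central 500 bp, the Maf site 94.6 kb downstream held TEAD and Maf core matches. Over all 45091 regions the central 200 bp held the PU.1 consensus in 5.42%, the C/EBP consensus in 10.9%, the IRF consensus in 16.1% and the TEAD consensus in 13.3%. Over the 17148 of them in MAC alone, the class of most of these windows, the shares were 9.61%, 16.9%, 18.9% and 9.23%.

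To compare the letters over whole groups, the 9 consensus sequences were counted in the central 500 bp of the distal regions. The PU.1 consensus was found in 7 of the 42 regions in MAC alone, or 16.7% (8.32 to 30.6), against 14.3% of all 17148 regions in MAC alone and 4.87% of the 21368 regions not open in MAC. Of the 18 regions of the 7 genes not open in MAC, 2 held it, or 11.1% (3.10 to 32.8), an interval that holds the 16.7%. In the central 200 bp the order was the other way, 9.52% in MAC alone and 11.1% not in MAC. The 7 in MAC alone were 3 at Irf8 and 1 each at Cebpa, Cebpd, Maf and Tfec. The C/EBP consensus was found in 14 of the 42, or 33.3% (21.0 to 48.4), against 30.1% of all regions in MAC alone and 16.7% of those not open in MAC. Of these, 5 were at Cebpb, 3 at Irf8, 2 at Maf and 1 at each of the other 4 genes. Among the 18 regions of the 7 genes that were not open in MAC, none held it, with an upper Wilson limit of 17.6%. In the central 200 bp alone, the C/EBP share of the 42 was 19.0% and that of all regions in MAC alone 16.9%. One or both of the consensus sequences were present in 18 of the 42 regions, or 42.9%, against 40.8% of all regions in MAC alone.

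GATA matches had the opposite order. They were found in 4 of the 42 regions in MAC alone, or 9.52% (3.77 to 22.1), and in 8 of the 18 not open in MAC, or 44.4% (24.6 to 66.3). Over all genes these shares were 20.3% and 31.8%. TEAD matches were in 7 of the 42, or 16.7%, and in 9 of the 18, or 50.0% (29.0 to 71.0), against 23.4% and 33.7% over all genes. IRF, RUNX and Maf core matches were each in 17 of the 42, or 40.5%. Over all regions in MAC alone they were in 39.8%, 41.6% and 43.5%. AP-1 matches were in 10 of the 42, or 23.8% (13.5 to 38.5), against 33.5%, and in 8 of the 18, or 44.4% (24.6 to 66.3), against 19.4%. At the 7 genes the order was thus opposite to that over all genes, but in the central 200 bp it was not, with 16.7% of the 42 and 5.56% of the 18. The E-box was in 3 of the 42, or 7.14%, against 9.13%.

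**Figure D5:**
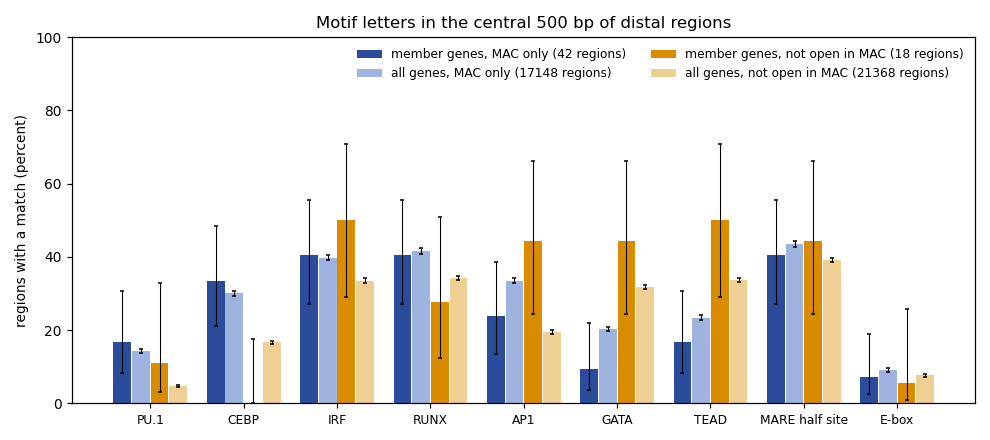
Share of distal regions (percent, vertical axis) whose central 500 bp held each of the 9 consensus sequences, for regions in MAC alone and regions not open in MAC, at the 7 genes and over all genes. Bars carry 95% Wilson intervals for counting error. In the MAC-only class the PU.1 share was 16.7% at the 7 genes and 14.3% over all genes, while the GATA share was 9.52% and 20.3%, and C/EBP letters are absent from the 18 regions not open in MAC.

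Relatives of the 7 genes were looked at next, in a list of 21 genes of the same families. Of these 13 had a promoter site at all 5 stages, or 61.9% against 43.4% of all genes. One, Irf5, which encodes an IRF factor of inflammatory macrophages, had it in MAC alone. Spib, Spic and Cebpe had none, although Spic is known in red pulp macrophages and Cebpe in late granulocytes. Irf4 had the pattern of Tfec, HE and MAC. Summed sites of the 21 genes were 33, 36, 51, 29 and 77 from MES to MAC. Among them 12 had more sites in MAC than in HP, or 57.1% against 38.2% of all genes. The relative with the most MAC sites was Irf2, with 3, 4, 11, 5 and 16. Of the closest relatives of Tfec in the list, Mitf had 1, 3, 6, 1 and 10 sites and Tfeb had 3, 2, 3, 1 and 9, while Tfe3 had 2, 2, 2, 2 and 1.

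Genes that these factors are known to regulate were set beside them in a list of 26. From MES to HP, 3, 5, 7 and 5 genes of this list had a promoter site, and 18 had one in MAC. A promoter site in MAC alone was found for 11 of the 26, or 42.3%, against 1.77% of all genes and none of the 7 factor genes. The 11 were the cytokine receptor genes Csf1r and Csf2rb, the surface receptor genes Itgam, Msr1, Adgre1, Fcgr1 and Fcgr2b, and Lyz2, Tyrobp, Ncf4 and Ctss. Another 7 had no promoter site at any stage, or 26.9%, which is near the 32.4% of all genes. These were Csf3r, Elane, Ctsg and Prtn3, which are used in granulocytes, Cybb and Ncf1 of the NADPH oxidase, and the cytokine gene Il1b. Summed sites were 18, 22, 29, 22 and 105, and 22 of the 26, or 84.6%, had more sites in MAC than in HP, against the same 38.2%. The promoter of Itgb2, the partner chain of CD11b, had the pattern of Spi1, with sites in HE, HP and MAC. CD11b was the sorting marker of MAC, so the Itgam result is tied to the sort.

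Genes most like each of the 7 were sought among those with the same promoter pattern, by the summed difference in site number over the 5 stages. For Spi1, among 91 other genes, these were Dapp1, with 1, 1, 4, 5 and 7 sites and a difference of 3, Frrs1 with 4 and Cdkl4 with 5, where 6 genes lay at 5 or less. For Tfec, among 158, they were Plin2 and S100a11, with 1 each, and Gramd1a with 2, where 6 genes lay at 2 or less. Bend6, Hvcn1 and Rnf130 had the same 5 numbers as Cebpd. Ncoa2 had those of Maf, and Cd47 and Kmt2e differed from Maf by 1. For Irf8 the nearest were Cacna1a, Cmip and Zfp36l2, at 9 each. For Cebpb they were Ankdd1a and Tmco5, at 11, and Lrrc74a at 12. Cebpa had 83 genes with its own 5 numbers, so none is singled out. Counts this small tie easily, and likeness over 5 lists is a description.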

How the data were processed

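DNaseI-seq had been carried out on 5 sorted populations, 1 deposited list of sites each. Per the study's methods and the labels, the authors size-selected digested DNA, aligned reads to mm10 with Bowtie and used DFilter, at a bin size of 100 bp, to call sites; versions are not given in the sources used here. Each deposited row gives the first and last base of a site and no measure of its strength. The reference was GRCm38.p6 with RefSeq genes; no interval ran past a chromosome end. Widths were multiples of 100 bp and no interval was repeated.

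Sites were assigned by centre to the nearest of 25999 curated start sites within 100 kb. Windows of 500 bp around centres were merged where 125 bp or more overlapped. Motifs were exact matches to 9 consensus sequences on both strands. Shares carry 95% Wilson intervals for counting error. No stage had separate lists for its replicates, hence no test. Assignment and merging were tested on simulated sites. Python 3.11.15, pandas 2.3.3, numpy 2.4.6, scipy 1.17.1 and matplotlib 3.10.9 were used. All 7 genes are named. From the lists of relatives and regulated genes, every gene with a promoter site in MAC alone or at no stage is named; Irf2, Irf4, Mitf, Tfeb and Itgb2 were named after their values were seen. The genes and lists were chosen with earlier results of these data known. A gene of the lists and some sequences are not reported here.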

Additional observations from a re-analysis of the deposited data

How the results depend on the processing

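The number of member promoters with a site was within 1.5 times its value under a reach of 100 bp or 2 kb and with curated start sites alone. When sites narrower than their list's median were dropped, it fell in HP to 0, since the HP promoter sites were narrow. Assigned sites, in the order MES, HB, HE, HP and MAC, changed more. Without the narrow sites they were 7, 9, 14, 1 and 36. With the widest sites in equal numbers from each list they were 9, 11, 14, 15 and 33. With a reach of 50 kb they were 9, 11, 17, 10 and 37, and with a reach of 20 kb 8, 10, 15, 10 and 24. With the nearest TSS of any gene, non-coding ones included, they were 7, 10, 15, 10 and 24. With the nearest gene body they were within 1.5 times. The MAC number was the highest under each of these. The MAC share of member sites was 53.7% without the narrow sites, 35.8% with a reach of 20 kb and 36.4% with any gene, the others lying between 40.2% and 44.0%, and the share of MAC among all sites was 20% to 27.7%. MAC-only distal regions numbered 27 without the narrow sites and 23 with the widest sites, and their share stayed between 56.1% and 65.9%, against 28.7% to 44.3% of all regions. In the central 200 bp, C/EBP letters were in 19.0% and PU.1 letters in 9.52% of the MAC-only member regions. In the central 500 bp with the letters reversed, both shares were 2.38%, but reversal adds a CpG to the C/EBP letters, and over all distal regions the reversed letters were in 5.23%, so it is no matched control. Reversed IRF and RUNX letters were in 42.9% each of the MAC-only member regions, and reversed GATA and TEAD letters in 21.4% each, all above the forward shares, as was the E-box at 16.7%. Reversed AP-1 and Maf core letters, at 9.52% and 2.38%, were below. Reversal also adds a CpG to the Maf core and removes one from the E-box, so for these too it is no matched control. Over all distal regions the Maf core was in 41.1% forward and 4.41% reversed. No paired analysis was possible because each stage has 1 list, and no replicate could be left out. The lists give no depth, which limits every statement on an absent site.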
